A study of Mus musculus with 8 samples.

Results

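The response to carbon-ion irradiation that was common to 3 pretreatments was described by setting the 6 irradiated arrays of the series against its 2 unirradiated arrays, so that all 8 of 8 arrays were used. RNA came from the small intestine (the jejunum, in the design text) of BALB/cA Jcl mice, all female and 8 weeks old. The unirradiated mice had received saline (0 Gy, 2 arrays). The irradiated mice had received saline, the growth factor FGF1, or the chimeric protein FGF1/CPP-C by intraperitoneal injection, 12 h before 8 Gy of carbon ions in the design text, and were sampled 4 h after it (2 arrays each). No unirradiated mice received a growth factor, so in those groups the pretreatment and the irradiation cannot be told apart against the controls; the saline groups alone differ by irradiation. Nothing in the labels ties each array to an animal of its own, so the p-values rest on a spread between arrays that could be technical. Replicate 1 of every group was on slide 1 and replicate 2 on slide 2.

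Ionising radiation breaks DNA, and the protein kinases that sense the breaks stabilise the transcription factor p53, the product of Trp53. p53 induces genes that stop the cell cycle, that limit p53 itself, and that open the mitochondrial path to cell death. Dividing crypt cells of the small intestine are known to respond this way within hours. Genes for mitosis are known to be held down, after damage, by the DREAM complex, which binds promoter elements such as TTTGAA (the cell cycle homology region).

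The arrays were of similar brightness, but the unirradiated arrays were the dimmest. The 75th percentile of the processed signal was 1873 and 1735 on unirradiated arrays 1 and 2. It lay between 1918 and 2165 on the 6 irradiated arrays, so the scaling factor differs in the same direction as the comparison. Between 68.2% and 72.5% of spots were well above background. The number of arrays, not a read depth, limits the precision. Arrays of the same group correlated at r = 0.982 to 0.994 across genes, which are not independent replicates. Markers of absorptive enterocytes, which define the labelled tissue, had array medians between 5.00 and 5.46 (all levels are log2 relative to the array's 75th percentile). Markers of the stomach antrum had medians of 2.38, 4.06 and 2.25 on unirradiated array 1, saline 8 Gy array 2 and FGF1 array 1, and between -5.96 and -2.37 on the other 5 arrays. Markers of pancreatic acinar cells had medians of 5.32 on unirradiated array 1 and 2.87 on saline 8 Gy array 2. Transcripts of these tissues were unequally present, and their part in the results was not tested. Results are given with and without the 3 arrays high in antrum transcripts where this changes a call. Leaving out those 3 leaves 1 unirradiated array, and 1 array each of the saline 8 Gy and FGF1 groups. In a call lost that way, the antrum transcripts and the smaller groups with a lone control cannot be told apart.

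Of 21675 genes tested by limma with Benjamini-Hochberg adjustment, 355 were higher (1.64%) and 352 lower (1.62%) after irradiation at an adjusted p under 0.05, 3.26% in all; this is what passed means here. All 707 lay beyond both unirradiated arrays on all 6 irradiated arrays. A large pooled difference beside a small spread nearly forces that pattern in the same values, so it is not separate support. That pattern alone, with no test, held upward for 10.3% and downward for 12.1% of all genes. Among the 707, 115 were at least 2-fold higher and 48 at least 2-fold lower. The count rested on the small control group: 125 genes passed without unirradiated array 1, 102 without unirradiated array 2 (where the lone control is assumed to vary like the other arrays) and 65 without the 3 arrays high in antrum transcripts, while 1251 passed without saline 8 Gy array 2. It was 246 and 293 without FGF1 arrays 1 and 2, and 360 and 403 without FGF1/CPP-C arrays 1 and 2. Of 106 genes that passed and were followed through the alternatives, 43 and 40 still passed without unirradiated array 1 or 2, and 29 without the 3 arrays high in antrum transcripts. For 1 gene alone, an exact permutation test of 6 against 2 arrays has 28 arrangements. Its smallest one-sided p, doubled, is 0.0714.

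**Figure D1:**
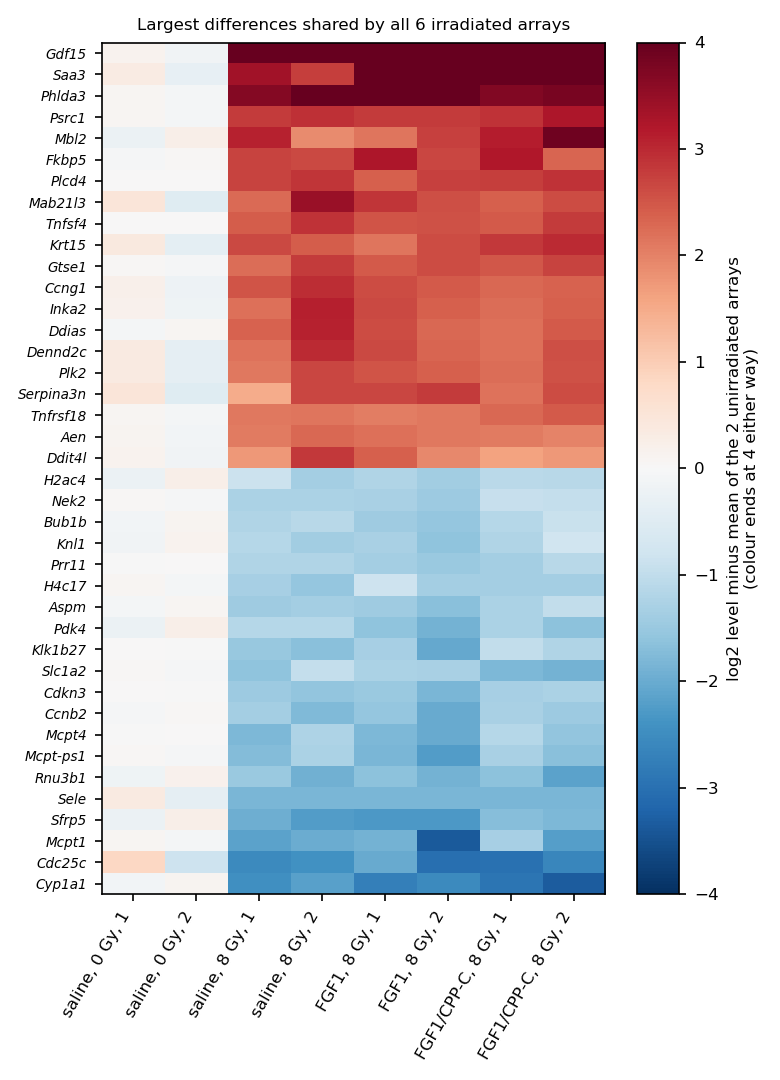
Log2 level minus the mean of the 2 unirradiated arrays (colour, ending at 4 either way) for the 20 genes per direction with the largest differences, by array (columns). The 6 irradiated columns have the same colour direction in each gene, since the genes were chosen for it, and Gdf15, at 5.76, is the largest difference.

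Many of the largest rises were in targets of p53. Bases of their promoter windows that match a p53 site are shown because these genes moved together; capitals mark the match. A site was taken as 2 copies of the p53 half-site of 10 bases, with up to 13 bases between them and at most 2 mismatches in all, searched in the RefSeq windows of GRCm38.p6 from 250 bases before to 50 after each gene start. A match is a description of letters, not a bound site.
Ccng1 (chr11:40755417-40755517, - strand): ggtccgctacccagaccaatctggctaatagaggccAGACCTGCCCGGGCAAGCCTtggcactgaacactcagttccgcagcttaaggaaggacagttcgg
Gtse1 (chr15:85859885-85859975, + strand): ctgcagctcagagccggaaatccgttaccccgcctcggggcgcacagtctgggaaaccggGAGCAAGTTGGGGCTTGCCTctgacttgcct
Zfp365 (chr10:67912673-67912763, - strand): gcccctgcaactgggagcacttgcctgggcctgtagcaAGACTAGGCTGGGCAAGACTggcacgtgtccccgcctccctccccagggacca
Bax (chr7:45467029-45467129, - strand): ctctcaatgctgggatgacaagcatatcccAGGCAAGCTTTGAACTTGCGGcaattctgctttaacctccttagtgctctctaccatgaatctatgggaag
Such a match stood in 8 of 35 windows (22.9%) of the measured p53 arrest and feedback genes. It stood in 7.69% of windows of all genes that were higher, and in 3.89% of the windows of all genes tested. Among the arrest and feedback genes that rose it stood in 5 of 23 windows (21.7%), so the share was no higher in them. The list was made of known p53 targets.

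Gdf15 encodes a stress-induced cytokine, and its probe lies at chr8:73153293-73153352 of mm9, the build of the array files. Gdf15 was at -3.37 and -3.64 on the unirradiated arrays. Its level was 1.74 and 2.45 after saline, 1.92 and 2.45 after FGF1 and 2.36 and 2.62 after FGF1/CPP-C. The groups did not overlap and the mean rose by 5.76 ± 0.24 on the log2 scale (SE), 54.3-fold (adjusted p = 5.84e-05). Phlda3 (probe at chr1:137665642-137665701), whose product keeps Akt from the membrane, was at -0.26 and -0.44 without irradiation. With it, Phlda3 was at 3.34 and 3.96 (saline), 3.68 and 3.63 (FGF1) and 3.34 and 3.44 (FGF1/CPP-C), 15.1-fold higher (3.92 ± 0.17 on the log2 scale, SE; adjusted p = 5.84e-05). Ccng1, a cyclin induced by p53, went from 0.45 and 0.02 to between 2.54 and 3.18, 5.78-fold (2.53 ± 0.18; adjusted p = 0.000596). These differences were alike on both slides: 5.38 and 6.15 for Gdf15, 3.72 and 4.12 for Phlda3, 2.26 and 2.80 for Ccng1.

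Among the genes of arrest and p53 feedback, 20 of 34 measured rose and 0 fell, with a median difference of 0.92 against -0.05 over all genes tested. Within slides that median was 0.84 (slide 1) and 1.00 (slide 2). Psrc1, a microtubule-associated protein, rose by 2.91, Gtse1, which counters p53 in G2, by 2.55, and Plk2, a stress-induced kinase, by 2.42. Aen, an exonuclease induced by p53, rose by 2.12 and Mgmt, which repairs alkylated guanine, by 2.01. The best known members had smaller differences. Cdkn1a, the CDK inhibitor p21, went from 2.74 and 2.93 to between 3.70 and 3.96, 1.95-fold (0.97 ± 0.10; adjusted p = 0.00272). Mdm2, the ubiquitin ligase that degrades p53, went from 2.61 and 2.79 to between 3.69 and 3.97, 2.28-fold (1.19 ± 0.10; adjusted p = 0.00136). Zfp365 rose by 1.94, Trp53inp1 by 1.28, Sesn2 and Zmat3 both by 1.36, and Ppm1d, the phosphatase that ends damage signalling, by 0.62. Trp53 itself had a difference of -0.13 (adjusted p = 0.63). The list holds 13 members that passed without the 3 arrays high in antrum transcripts, where Cdkn1a (adjusted p = 0.11), Mdm2 (adjusted p = 0.0953) and Ppm1d (adjusted p = 0.134) did not pass; over 21 alternatives the highest adjusted p was 0.252 for Cdkn1a and 0.0953 for Mdm2.

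**Figure D2:**
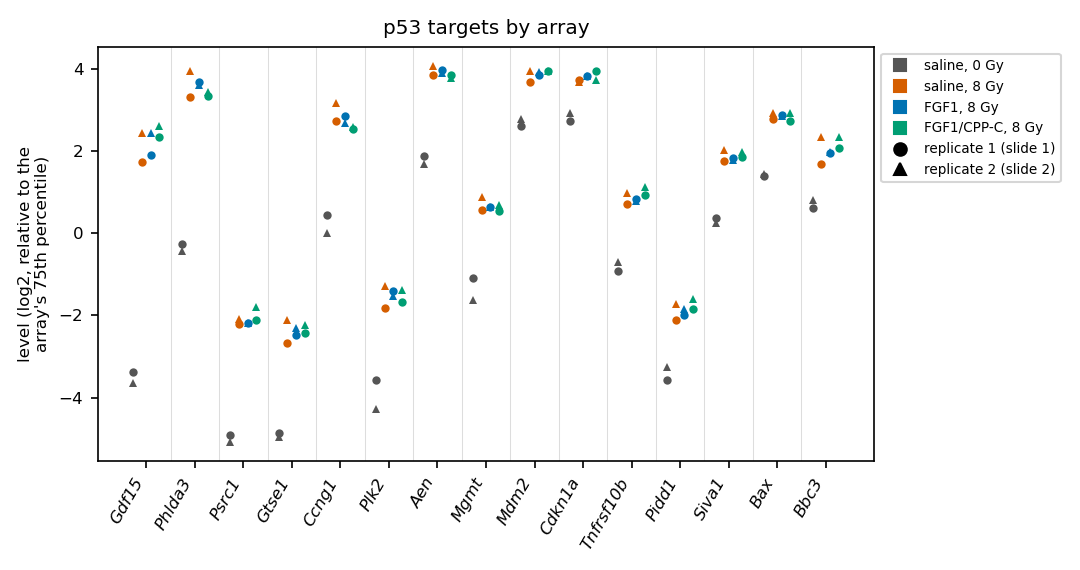
Level (log2, relative to the array's 75th percentile) of 15 p53 targets on each array, coloured by group, with circles for replicate 1 and triangles for replicate 2. In each gene the 2 unirradiated arrays sit below all 6 irradiated arrays, with the widest gap in Gdf15.

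Of the p53 targets that promote cell death, 5 of 14 measured rose and 0 fell. Bax, which permeabilises the mitochondrial membrane, was at 1.39 and 1.45 without irradiation. Bax stood at 2.80 and 2.94 (saline), 2.88 and 2.85 (FGF1) and 2.73 and 2.94 (FGF1/CPP-C), 2.70-fold higher (1.43 ± 0.08; adjusted p = 0.000165). Tnfrsf10b, a death receptor for TRAIL, rose by 1.70, Pidd1 by 1.57, Siva1 by 1.56 and Bbc3, the BH3-only protein PUMA, by 1.35. Fas, another death receptor, had a difference of 0.43 (adjusted p = 0.0937), Apaf1, the scaffold of the apoptosome, 0.75 (adjusted p = 0.0938), and Pmaip1, the BH3-only protein NOXA, 0.14 (adjusted p = 0.761). Without the 3 arrays high in antrum transcripts 2 of 14 passed, Bax and Siva1, and the adjusted p was 0.0723 for Tnfrsf10b, 0.115 for Pidd1 and 0.158 for Bbc3. In the list of other BCL2 family members 0 of 12 passed by limma, and 2 had an unadjusted p under 0.05, where 8.83% of all genes were higher and 10.8% lower at that level.

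Genes of mitosis moved the other way: 21 of 41 measured fell, 0 rose, and 40 of 41 had a negative difference. The median was -0.74 (-0.62 on slide 1, -0.82 on slide 2). Their promoter stretches are shown because TTTGAA and CCAAT, searched on both strands and able to share 1 base, recur near the gene start; both motifs are in capitals.
Ccnb2 (chr9:70421535-70421665, - strand): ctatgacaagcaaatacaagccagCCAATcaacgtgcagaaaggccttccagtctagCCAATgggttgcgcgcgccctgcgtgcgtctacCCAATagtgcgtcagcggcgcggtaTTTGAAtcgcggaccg
Cdc20 (chr4:118437324-118437454, - strand): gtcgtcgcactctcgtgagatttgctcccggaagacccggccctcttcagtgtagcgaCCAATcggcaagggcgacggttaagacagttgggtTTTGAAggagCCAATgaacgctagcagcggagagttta
Aspm (chr1:139454662-139454792, + strand): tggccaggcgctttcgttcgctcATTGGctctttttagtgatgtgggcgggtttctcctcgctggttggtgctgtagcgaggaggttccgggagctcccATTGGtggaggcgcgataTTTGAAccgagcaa
Prc1 (chr7:80294340-80294470, + strand): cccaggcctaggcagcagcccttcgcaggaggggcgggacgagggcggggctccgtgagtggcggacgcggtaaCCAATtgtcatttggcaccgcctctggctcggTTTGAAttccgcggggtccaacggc
TTTGAA stood in 25 of 37 windows (67.6%) of the measured mitosis genes and in 13.3% of the windows of all genes tested. Both motifs stood together in 59.5% and 5.21% of them. Among the mitosis genes that fell, TTTGAA stood in 13 of 18 windows (72.2%), near the 67.6% of the whole measured list. The list was made of known mitosis genes, so these shares describe the list. Binding of any complex was not tested.

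Ccnb2, a cyclin that drives entry into mitosis, was at 1.42 and 1.52 without irradiation. It was at 0.12 and -0.31 after saline, -0.08 and -0.53 after FGF1 and 0.18 and 0.03 after FGF1/CPP-C, 2.97-fold lower (-1.57 ± 0.19; adjusted p = 0.00672). Plk1, the kinase that promotes entry into mitosis, went from 1.18 and 1.25 to between -0.04 and 0.36 (-1.05 ± 0.13; adjusted p = 0.00844). Ccnb1 fell by 1.11, Cdc20, which activates the anaphase-promoting complex, by 1.00, Cenpa, the centromeric histone, by 1.14, and Bub1b, of the spindle checkpoint, by 1.22. Aurka fell by 0.76 and Mki67, the Ki-67 antigen, by 0.75. Cdc25c, which activates Cdk1, was at -2.88 and -4.51 and then between -6.72 and -5.71, well above background on 1 of the 6 irradiated arrays. Cdk1 had a difference of -0.57 (adjusted p = 0.0537). Without the 3 arrays high in antrum transcripts the median was -0.75 and 0 members passed; with either unirradiated array left out 3 passed.

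Of 40 DNA replication genes measured, 3 rose and 0 fell, with a median of 0.17. Rrm2, the small subunit of ribonucleotide reductase, went from 0.43 and 0.59 to between 1.39 and 1.91, 2.23-fold (1.16 ± 0.15; adjusted p = 0.0104). The licensing factors Cdc6 and Cdt1 both rose by 0.76. Ccne1, the G1 cyclin, had a difference of 0.53 (adjusted p = 0.11), E2f7, a repressor among E2F targets, rose by 0.88, and Ccna2, of S phase and G2, fell by 0.77. In the list of damage sensing and repair 2 of 40 rose and 0 fell, with a median of 0.0068, against 1.64% of all genes higher; Ddias, which protects cells from death after DNA damage, rose by 2.49. None of the replication genes, nor E2f7 (adjusted p = 0.182) or Ccna2 (adjusted p = 0.195), passed without the 3 arrays high in antrum transcripts.

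**Figure D3:**
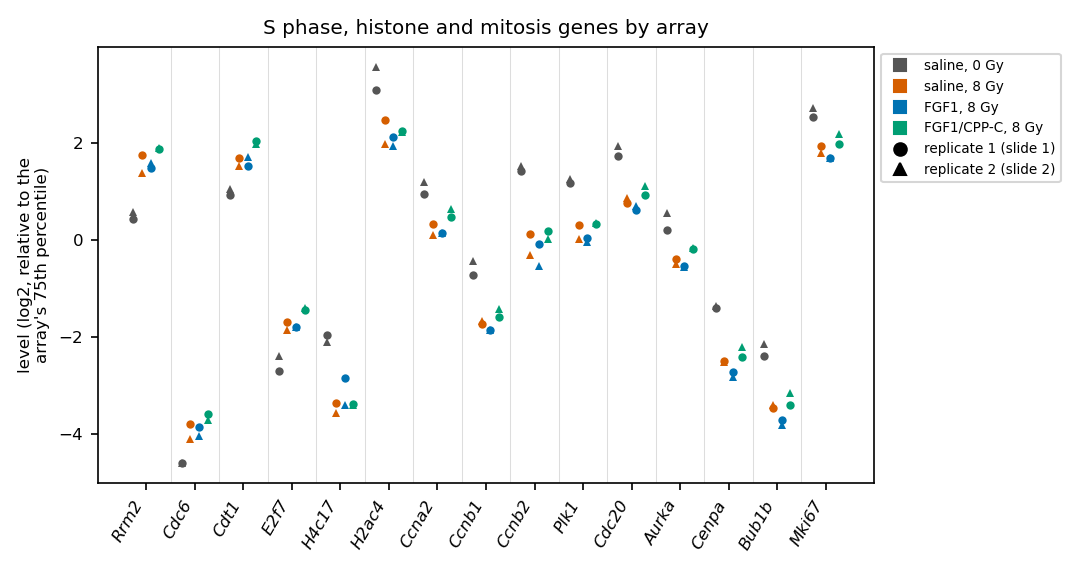
Level (log2, relative to the array's 75th percentile) of 15 S phase, histone and mitosis genes on each array, coloured by group. Rrm2, Cdc6, Cdt1 and E2f7 are higher on all 6 irradiated arrays, and the 11 others are lower.

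Replication-dependent histone genes, a set chosen after its values were seen, had 19 of 38 lower and 0 higher, with a median of -0.59. Of the 38, 32 had a negative difference, and the others were all H2B genes. H2bc1, H2bc4 and H2bc14 had differences of 0.32, 0.41 and 0.33, with all 6 irradiated arrays above both unirradiated arrays. H2bc3, H2bc18 and H2bc21 had negative differences, and no H2B gene passed. H2ac4 fell by 1.17 and H4c17 by 1.30; without the 3 arrays high in antrum transcripts H4c17 passed and H2ac4 did not (adjusted p = 0.129). These genes are near-identical copies whose probes may detect one another, so single members are uncertain.

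**Figure D4:**
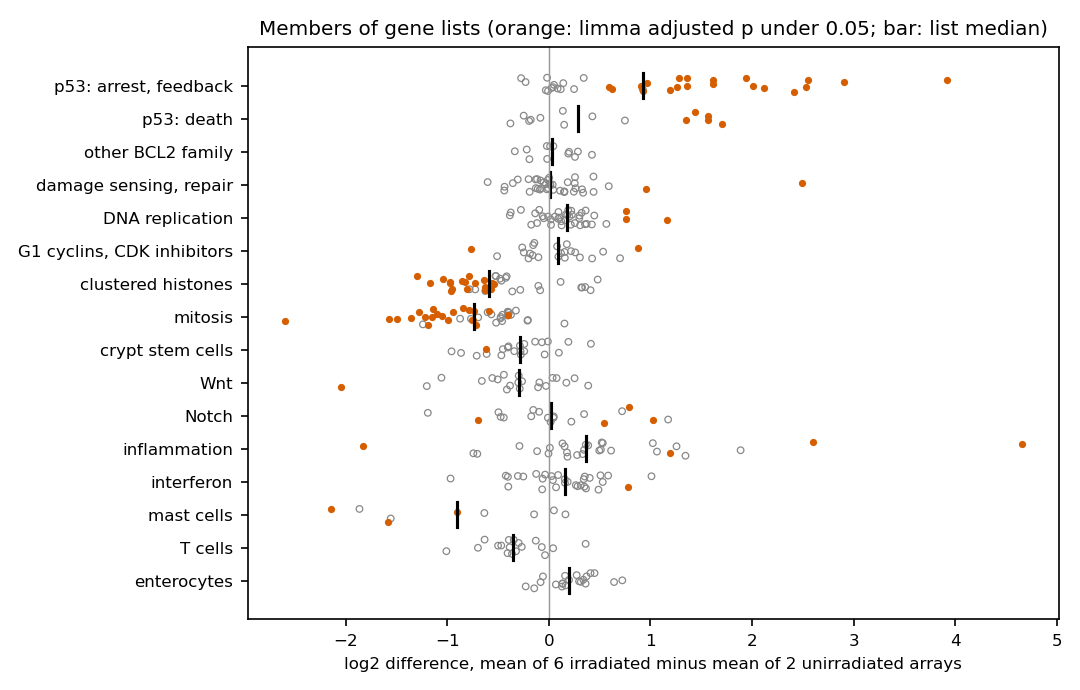
Log2 difference (mean of 6 irradiated minus mean of 2 unirradiated arrays) of each measured member of 16 gene sets; orange points passed at an adjusted p under 0.05 and bars are medians. The arrest and feedback set has its median at 0.92 and the mitosis set at -0.74, while most other sets straddle 0.

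Single members of the inflammation and interferon lists passed. Saa3, an acute-phase protein, was at -5.36 and -6.02 without irradiation, at -2.32 and -2.91 after saline, -0.53 and -0.57 after FGF1 and 0.70 and -0.56 after FGF1/CPP-C. It rose by 4.66 ± 0.87 (SE, adjusted p = 0.0332), and its test among the 3 irradiated groups gave an adjusted p of 0.365. Tnfsf4, the OX40 ligand, was not well above background on the unirradiated arrays and was 6.07-fold higher. Sele, the endothelial selectin, was not well above background on any irradiated array and was 3.55-fold lower. Such folds are differences of the group means, with signals under the floor set to the floor. They use signals not well above background in the dim group and are not bounds. In the inflammation list 3 of 29 rose and 1 fell. Of the 29, 23 had a positive difference, against 9144 of 21675 genes tested, and the median was 0.36. By limma 12 of 29 had an unadjusted p under 0.05, where 8.83% of all genes were higher and 10.8% lower. In the interferon list 1 of 31 rose, Mx1, by 0.78, where 1.64% of all genes were higher and 1.62% lower. Without the 3 arrays high in antrum transcripts Tnfsf4 and Sele passed, and the adjusted p was 0.156 for Saa3 and 0.134 for Mx1.

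Among genes that report hormone and xenobiotic signals, Fkbp5, a glucocorticoid-induced chaperone, went from 0.04 and 0.15 to between 2.42 and 3.34, 6.96-fold (2.80 ± 0.24; adjusted p = 0.00151). Pdk4, also a glucocorticoid target, fell by 1.44, so the list, with 3 of 18 higher and 2 lower, did not move one way. Cyp1a1 (probe at chr9:57551535-57551594 of mm9), the main target of the aryl hydrocarbon receptor, went from -0.27 and -0.05 to between -3.48 and -2.34, 6.48-fold lower (-2.70 ± 0.27; adjusted p = 0.00279), and was the 1 of 8 targets that passed. Without the 3 arrays high in antrum transcripts the adjusted p was 0.0849 for Fkbp5 and 0.08 for Cyp1a1. Of 22 cholesterol synthesis genes 17 had a negative difference (median -0.27), and of 12 heat shock genes 11 (median -0.26), against 12531 of 21675 genes tested. By limma 10 and 7 of them had an unadjusted p under 0.05, where 8.83% of all genes were higher and 10.8% lower. Those that passed were 3 of 22 (lower, Fdps by 0.74, Lss by 0.53, Mvd by 0.40) and 1 of 12 (lower, Hsph1 by 1.11), against 1.62% of all genes lower. None of these passed without the 3 arrays high in antrum transcripts (adjusted p = 0.145 for Pdk4, 0.18 for Fdps, 0.232 for Lss, 0.238 for Mvd and 0.0721 for Hsph1).

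Some genes of crypt signalling passed. Of 22 stem cell genes 19 had a negative difference (median -0.28), and of 21 Wnt genes 16 (median -0.30), against 12531 of 21675 genes tested. The stem cell medians by array overlapped: 0.60 and 0.24 on the unirradiated arrays, and up to 0.61 on the irradiated ones (saline 8 Gy array 2). Sfrp5, a secreted Wnt antagonist, went from -0.66 and -0.21 to between -2.74 and -2.13 (-2.05 ± 0.20; adjusted p = 0.00273). Of 19 Notch genes 3 rose and 1 fell, against 1.64% of all genes higher and 1.62% lower. The ligands Jag2 and Jag1 rose by 0.79 and 0.55, the feedback gene Nrarp by 1.03, and the receptor Notch1 fell by 0.70. The Notch list had 10 positive and 9 negative differences. By limma 9 of 19 had an unadjusted p under 0.05, where 8.83% of all genes were higher and 10.8% lower. The stem cell marker Lgr5 had a difference of -0.04 (adjusted p = 0.951) and Olfm4 -0.87 (adjusted p = 0.269); 1 of 22 stem cell genes fell, against 1.62% of all genes lower, Znrf3, by 0.62, a call that changed in 16 of 21 alternatives. The ERK-responsive Etv4 rose by 0.98, except with the series matrix values, and Ereg, an EGFR ligand, by 0.96. In the ERK feedback list 2 of 17 rose and in the EGFR list 2 of 14, where 1.64% of all genes were higher. Of 18 immediate early genes 1 rose, Ier5, by 1.03, against 1.64% of all genes higher. Egr1 had a difference of 1.03 (adjusted p = 0.198) and Fos -0.06 (adjusted p = 0.923). None of the genes of this paragraph passed without the 3 arrays high in antrum transcripts; the adjusted p was 0.0665 for Sfrp5, 0.0625 for Etv4, 0.0521 for Ier5, 0.0953 for Nrarp, 0.154 for Jag2, 0.227 for Jag1, 0.258 for Notch1, 0.232 for Ereg and 0.158 for Znrf3.

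Proteases of mast cells were among the genes that fell. Mcpt4 was at 0.30 and 0.31 without irradiation and between -1.70 and -0.83 with it (-1.59 ± 0.23; adjusted p = 0.0147), and Mcpt1 fell by 2.14. Of 9 mast cell genes 3 fell, against 1.62% of all genes lower, and the median was -0.91. The call changed in 3 of 21 alternatives for Mcpt4, 9 of 21 for Mcpt1 and 14 of 19 for Fcer1a, the 3 that fell. In whole tissue, fewer cells and less RNA per cell cannot be told apart. The T cell list had a median of -0.35 with 0 of 18 passed (2 at an unadjusted p under 0.05). By group that median was -0.59 after saline, -0.49 after FGF1 and 0.09 after FGF1/CPP-C. Its sign was not common to the 3 pretreatments. The enterocyte list had a median of 0.20 with 0 of 21 passed (1 at an unadjusted p under 0.05). At that level by limma 8.83% of all genes were higher and 10.8% lower. No mast cell gene passed, 0 of 9, without the 3 arrays high in antrum transcripts.

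**Figure D5:**
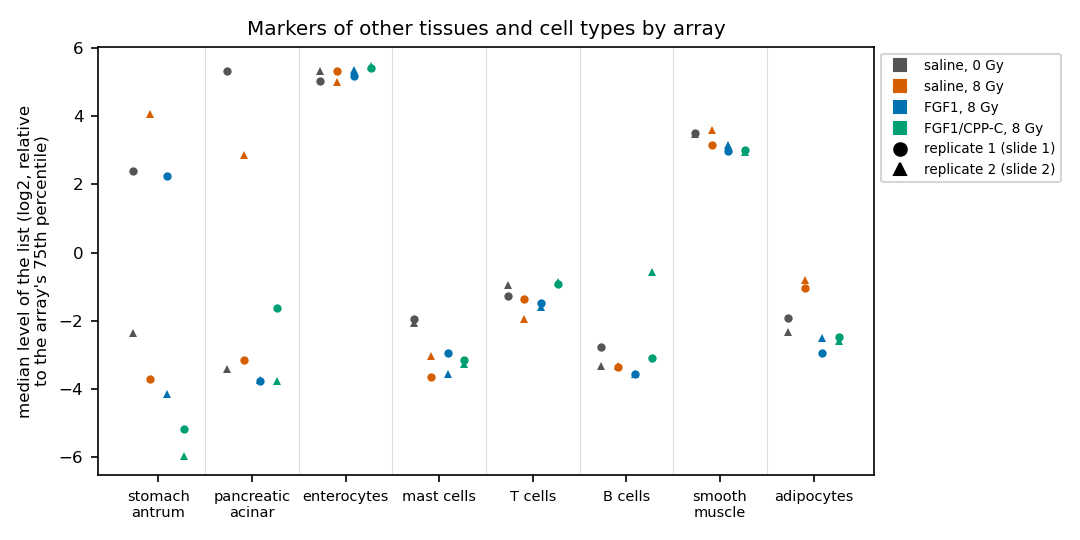
Median level of marker lists (log2, relative to the array's 75th percentile) on each array. The antrum and acinar medians are high on single arrays of several groups, up to 4.06 and 5.32, while the mast cell medians of the 6 irradiated arrays lie below both unirradiated arrays.

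Other cell types gave single calls, which say little of a cell type when 1.62% of all genes were lower and 1.64% higher. Of 16 endothelial genes 1 fell, Cldn5, a tight junction protein, by 0.45; of 15 fibroblast genes 1 fell, Col14a1, by 0.42; and of 13 enteric nerve genes 1 fell, Chat, which makes acetylcholine, by 0.64. Among adipocyte genes 1 of 13 rose, Adrb3, by 0.85. None of these 4 passed without the 3 arrays high in antrum transcripts (adjusted p = 0.217 for Cldn5, 0.182 for Col14a1, 0.26 for Chat and 0.0665 for Adrb3). The B cell, Paneth, goblet, enteroendocrine and tuft cell lists had 0 members passed by limma, and respectively 1, 0, 0, 0 and 0 at an unadjusted p under 0.05.

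Other genes had some of the largest differences, most of them outside the lists. Tnfrsf18, the receptor GITR, went from -1.83 and -1.96 to between 0.14 and 0.57, a rise of 2.20 ± 0.12 (SE). Ddit4l, an inhibitor of mTOR signalling, rose by 2.03 ± 0.32, Inka2 by 2.50 ± 0.24 and Mab21l3 by 2.68 ± 0.34. Plcd4, a phospholipase C, stood at the floor of -6.72 on both unirradiated arrays and between -4.33 and -3.82 on the irradiated ones. Among genes that fell, the difference was -1.49 ± 0.14 for Cdkn3, a CDK-associated phosphatase, -1.47 ± 0.24 for Slc1a2, a glutamate transporter, and -1.78 ± 0.18 for the small nucleolar RNA gene Rnu3b1. Prr11 and Knl1, both with roles in mitosis, fell by 1.28 and 1.24; Cdkn3 and Prr11 are members of the mitosis list. Without the 3 arrays high in antrum transcripts the genes named here as higher passed, and those that fell did not (adjusted p = 0.133 for Cdkn3, 0.12 for Slc1a2, 0.102 for Rnu3b1, 0.0934 for Prr11 and 0.18 for Knl1).

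The 3 pretreatments were compared by an F test among the irradiated groups. It called 2 of 21675 genes (0.00923%), and 1622 (7.48%) at an unadjusted p under 0.05. They were Tff2 and Gkn3, both in the antrum list, and Tff2 also in the list of Brunner glands, the mucous glands of the duodenum. Tff2 was at -6.00 and -6.72 after FGF1/CPP-C and at 8.18 or higher on the other 6 arrays, unirradiated ones included, among them arrays low in the antrum list. The Brunner gland list had medians of -4.87 and -5.32 after FGF1/CPP-C and between -2.62 and -0.43 on the other arrays. Of the 707 common genes 0 were called, and 34 (4.81%) had an unadjusted p under 0.05; the pooled test favours genes that vary little among the irradiated arrays, so this is not independent of the choice, and a missed threshold does not show that the pretreatments act alike. Against the controls they share, the arrest and feedback list had medians of 1.03 (saline), 0.94 (FGF1) and 0.81 (FGF1/CPP-C), and the mitosis list -0.73, -0.92 and -0.57.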

How the data were processed

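All 8 arrays were read as deposited. RNA was purified (Trizol, then RNeasy) and Cy3-labelled for 1-colour hybridisation, per the labels' protocols. Scans were quantified by Agilent Feature Extraction, version 9.5.3.1, per the submitters' processing notes. The deposited processed signal is, per the file headers, a linear intensity with background subtracted, and the deposited matrix of the series repeats those intensities. Well-above-background, saturation and outlier marks are deposited marks of 0 or 1 per spot, per the file headers. For scaling between arrays, the authors' method: not given in the sources used here.

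Control spots (1377) and outlier spots were left out. Signals were divided by each array's 75th percentile, floored at -6.72 on the log2 scale, and averaged per probe. A probe entered when some group had it well above background on each of its arrays, and each gene took its brightest such probe with values on all arrays (27559 probes, 21675 genes); 28330 of 39429 probes were named through RefSeq accessions. limma 3.58.1 in R 4.3.3 with the package data.table (version 1.17.8) compared 6 with 2 arrays, with Benjamini-Hochberg adjustment at 0.05; a 4-group fit gave the F test. On simulated data for this comparison (21675 genes) 77.6% of 2-fold and 97% of 4-fold changes were recovered, with 11 false calls. The simulation drew independent normal noise from the spread that the fit had estimated. It held no slide effect and no transcripts of other tissues, so its rates need not hold for these arrays. Figures used matplotlib 3.10.9 in Python 3.11.15 with pandas 2.3.3.

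The members, lists and tests were chosen with earlier results of these data known. Named genes are the 20 per direction with the largest difference among those passed with an established symbol, the list members that passed (up to 8 by smallest p, otherwise the 2 of smallest p), and a fixed set of key genes; other names were chosen after their values were seen. Alternatives covered the normalisation, background, filter, probes, floor, fit, slide block and each array left out. Replicate numbers mark slides; deviations of same-numbered arrays correlated between -0.521 and 0.539 over pairs of groups, so the numbers do not pair the arrays beyond the slide. The value of 1 member of the damage sensing and repair list is not reported here.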

Additional observations from a re-analysis of the deposited data

Results flagged for a closer look

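An array far from the other 5 irradiated arrays was found in 9 of 166 results tested by Dixon's rule, where chance gives about 1 in 20. Psrc1 was high, at -1.78, on FGF1/CPP-C array 2. Plcd4 was low, at -4.33, and Adrb3 low, at -2.96, on FGF1 array 1, where H4c17 was high, at -2.85. Ier5 was low, at -1.49, and Zmat3 high, at 0.70, on saline 8 Gy array 2. The B cell median was high, at -0.57, on FGF1/CPP-C array 2, against -3.58 to -3.08 on the other irradiated arrays. On saline 8 Gy array 2 the smooth muscle median was 3.61 and the pancreatic acinar median 2.87.

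Tff2 (adjusted p = 0.000101) and Gkn3 (adjusted p = 0.00446, limma F test) differed among the 3 irradiated groups, both lowest after FGF1/CPP-C. Gkn3 was at -1.64 and -1.80 there and between 7.22 and 8.40 on the other 6 arrays. Whether other tissue in the libraries plays a part was not tested.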

How the results depend on the processing

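The count of 707 genes stayed within 1.5 times under quantile normalisation (745, of which 63.1% higher against 50.2%: 470 higher, 275 lower), normexp correction (948), the series matrix values (650), the replicate block by slide (628, of which 614 beyond the controls), stricter and no filters (716 and 691), mean probes (661), a trended robust fit (781), a lower floor (706) and outlier spots kept (759). A fit of 4 group means gave 432, of which 427 beyond the controls. Leaving out 1 array gave 102 to 1251, and leaving out the 3 arrays high in antrum transcripts gave 65. The lower floor, the kept outlier spots and a second handling of the series matrix were added after the data were seen. The planned handling set spots without a value to the floor, and turned Etv4 to -0.14, Trp53 to 1.83 and Tff2 to 4.96. After Etv4 was seen to turn, a handling that leaves out such spots when bright was added; it gave 709 genes, Etv4 at 1.28 and Mt1 turned to -0.49, and had no value for Trp53 and Tff2.

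The F test called 2 genes, and 7 under quantile normalisation, 5 under normexp, 16 with the planned series matrix values, 1 under the stricter filter, 1 with no filter, 0 without the 3 arrays, and 2 to 4 with 1 array left out. Medians moved for mitosis (-0.58 with normexp), immediate early genes (0.27 with quantile, 0.14 with normexp, 0.29 with the added matrix handling), mast cells (-0.54 with normexp, -0.39 with no filter, -1.23 with the lower floor, -1.59 with the added handling), adipocytes (0.24 under the stricter filter, -0.24 with the lower floor) and, without the 3 arrays, for p53 arrest (0.85), p53 death (0.51) and other TNF superfamily genes (0.31). With 1 array left out, medians ranged from 0.26 to 0.42 (p53 death), -0.0070 to 0.12 (other BCL2), -0.80 to -0.59 (mitosis), 0.0096 to 0.12 (ERK feedback), -0.12 to 0.14 (enteroendocrine), -0.43 to -0.31 (fibroblasts), -0.57 to 0.17 (adipocytes), -6.70 to 1.16 (acinar) and -0.038 to 0.21 (regeneration). Near 0, signs turned for Lgr5 (0.051 with quantile, 0.098 without the 3 arrays, -0.15 to 0.051 with 1 array left out), Fos (-0.41 to 0.30), Trp53 (-0.33 to 0.076) and Pmaip1 (-0.14 to 0.41 with 1 array left out, -0.053 without the 3 arrays). The cause of these moves was not tested. Of 120 named genes 26 kept their call under every alternative run for them, among them Gdf15, Phlda3, Ccng1 and Bax. Dim probes limit Sele, Tnfsf4 and Cdc25c: their folds or differences use signals not well above background.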

Other observations

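Single genes chosen after their values were seen also passed, and are given as values with no count or test of a group. The largest difference among them was in 1700007K13Rik, not well above background on the unirradiated arrays and 21.7-fold higher after irradiation, a fold that uses those dim signals. Krt15 rose by 2.60 and Krt12 by 1.84, and both, with 1700007K13Rik, passed without the 3 arrays high in antrum transcripts. Krt15 was the 1 of 11 members of the keratin list that passed, and that list had 7 positive and 4 negative differences with a median of 0.13.

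The following genes passed with all arrays but not without those 3 arrays. Of genes known from cornified epithelium, the difference was 1.13 for Krt36 (adjusted p = 0.144 without them), 1.10 for Tgm1 (0.12), 0.95 for Lor (0.104) and 0.75 for Casp14 (0.141). Of genes for secreted acute-phase proteins, it was 2.81 for Mbl2 (0.109), 2.40 for Serpina3n (0.15), 1.39 for Hp (0.23), 1.19 for Lcn2 (0.146), a member of the inflammation and glucocorticoid lists, and 0.74 for Cp (0.184). Of p53 regulators, it was 0.82 for Mdm4 (0.175) and 0.81 for Ppp1r13l (0.151). The call changed in 13 of 20 alternatives for Tgm1 and 13 of 21 for Hp.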
